A study of Homo sapiens with 10 samples.

Results

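The set comprised 10 genes of the transforming growth factor beta (TGF-beta) pathway, found by exact match of the gene symbol in a table of 58302 genes. They were the ligands TGFB1 and TGFB2, the receptors TGFBR1 and TGFBR2, the signal carrier SMAD3, the inhibitors SMAD7 and SKIL, and the target genes PMEPA1, THBS1 and BHLHE40. All 10 were found, and all 10 passed the filter on low values that left 17837 genes for testing. The 10 genes had been chosen with earlier results of these data known. RNA had been sequenced from KYSE-410, a human cell line from an esophageal squamous cell carcinoma, after exposure to an inhibitor of SHIP2. SHIP2 is encoded by INPPL1 and takes the 5-position phosphate off the membrane lipid PIP3, and so acts on the signal that runs from growth factor receptors to AKT. K149 was given at 2 µM and compared with its own vehicle (3 libraries each), and AS1949490 was given at 20 µM and compared with its own vehicle (2 libraries each). Both vehicles were 0.1% DMSO, and every group was collected after 48 h. The labels name no added TGF-beta and no genetic change in any group.

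TGF-beta ligands are secreted in a latent form and, once released, bind the type II receptor, which recruits and phosphorylates the type I receptor. The type I receptor phosphorylates SMAD2 and SMAD3, which join SMAD4, enter the nucleus and act on target genes with partner factors such as AP-1. Some of the targets, among them SMAD7, SKIL and PMEPA1, feed back to limit the signal. In squamous epithelium the pathway is known both for holding back proliferation, through the cyclin-dependent kinase inhibitors CDKN2B and CDKN1A, and for driving matrix, migration and invasion genes in carcinoma.

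With K149 all 10 genes were called higher than in its DMSO libraries, where 35.8% of all genes tested were called higher and 66.4% in either direction, led by the receptor TGFBR1 at 2.2 times the DMSO mean. With AS1949490 the receptors TGFBR1 and TGFBR2 were called higher (32.1% of all genes were), the call of TGFBR2 being lost in several alternatives. Called lower were 6 genes (19.5% of all genes were, and 51.6% were called in either direction). They were led by the ligand TGFB2 at 0.327 times, THBS1 at 0.496 times and BHLHE40 at 0.515 times the DMSO mean. The vehicle libraries themselves differed between the arms in 9 of the 10 genes, where 66.2% of all genes were called, with THBS1 in the DMSO of the K149 arm at 0.143 times its level in that of the AS1949490 arm. Arm and set of libraries coincide, so a difference between vehicles cannot be told apart from a difference between library sets. In bulk RNA, fewer cells of a type and less RNA per cell cannot be told apart either.

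The deposited values are CPM, reads of a gene scaled by the total of its library. From the steps between the values a depth was inferred of 18.4 to 26.3 M gene reads per library. The step itself was about 0.05 CPM in every library, whatever its inferred depth. Replicates differed beyond counting noise in every pair, with the largest gaps between the DMSO libraries of the AS1949490 arm (chi-square per degree of freedom 8.83) and between K149 replicates 2 and 3 (8.31). INPPL1 was at 173.6 ± 9.8 CPM with K149 and 113.4 ± 9.8 CPM in its DMSO (SD, n = 3 each), and at 198.4 ± 8.79 CPM with AS1949490 and 135.7 ± 7.99 CPM in its DMSO (SD, n = 2 each). Of the squamous markers, TP63 (66.05 to 125.7 CPM), CDH1 (469.4 to 1123 CPM), KRT17 (35.68 to 222.3 CPM) and SFN (66.48 to 307 CPM) were present. The basal keratins that define the type were low, KRT5 at 0.799 to 9.045 CPM and KRT14 at 0.2 to 1.149 CPM. Over all 10 squamous markers the summed level was 1770 to 1844 CPM with K149 and 1583 to 1611 CPM in its DMSO, and 1861 to 1887 CPM with AS1949490 and 1803 to 1845 CPM in its DMSO. The higher sum with K149 came with higher means of CDH1 (1086 CPM with K149 and 862.4 CPM in its DMSO), LAMB3 (228.6 and 111.7 CPM) and EPCAM (289.4 and 245 CPM), while the means of KRT5 (1.182 and 8.912 CPM), KRT17 (40.39 and 84.55 CPM), SFN (70.02 and 157.4 CPM) and TP63 (95.76 and 119.3 CPM) were lower with K149 than in its DMSO. With AS1949490 the means of SFN (304.2 CPM, and 226.4 CPM in its DMSO), CDH1 (616.2 and 497.1 CPM), DSG3 (22.96 and 7.395 CPM) and TP63 (98.63 and 80.77 CPM) were higher. Those of KRT17 (101.3 and 209.4 CPM), LAMB3 (500.7 and 529.5 CPM), EPCAM (220.5 and 258.9 CPM), KRT5 (4.622 and 7.02 CPM), KRT6A (4.172 and 6.396 CPM) and KRT14 (0.625 and 1.124 CPM) were lower. Of 8 fibroblast markers 5 stayed under 1 CPM in every library and none was at 0 throughout. Their summed level was 257 to 275 CPM with K149 and 231 to 243 CPM in its DMSO, against 45.6 to 46.4 CPM with AS1949490 and 39.2 to 44.3 CPM in its DMSO. Most of it was LUM, averaging 253.6 CPM with K149, 221.5 CPM in its DMSO, 25.06 CPM with AS1949490 and 14.17 CPM in its DMSO. COL1A1 went the other way between the arms, at 9.826 CPM with K149 and 10.61 CPM in its DMSO, against 18.59 CPM with AS1949490 and 25.36 CPM in its DMSO. DCN was low throughout, at 2.182 and 1.699 CPM in the K149 arm and 0.999 and 0.674 CPM in the other (inhibitor, then DMSO). Of 5 endothelial markers 4 stayed under 1 CPM in every library, as did 5 of 6 immune markers, and the part of these levels in the results below was not tested.

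Promoter sequences from RefSeq (GRCh38.p14) are shown for 4 of the genes: the ligand TGFB2, THBS1 and BHLHE40, the 3 genes of the set that fell most with AS1949490, and TGFB1, the other ligand, which was not called there. Each runs 5′ to 3′ on the gene's strand from 250 bases before to 50 bases after a RefSeq start. Capitals mark the letters searched on both strands: CAGACA (a Smad box), GTCTAGAC (the Smad palindrome), TGACTCA (an AP-1 site), CACGTG (an E-box of the kind BHLHE40 binds) and GGGCGG (a GC box). Positions are counted from the start base as +1, with the base before it as -1.
TGFB2: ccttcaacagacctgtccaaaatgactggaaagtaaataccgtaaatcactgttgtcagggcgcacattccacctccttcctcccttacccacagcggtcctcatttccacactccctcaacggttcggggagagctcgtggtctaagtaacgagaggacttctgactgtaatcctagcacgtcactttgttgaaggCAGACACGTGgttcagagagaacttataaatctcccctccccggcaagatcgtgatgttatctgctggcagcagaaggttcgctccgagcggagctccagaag
THBS1: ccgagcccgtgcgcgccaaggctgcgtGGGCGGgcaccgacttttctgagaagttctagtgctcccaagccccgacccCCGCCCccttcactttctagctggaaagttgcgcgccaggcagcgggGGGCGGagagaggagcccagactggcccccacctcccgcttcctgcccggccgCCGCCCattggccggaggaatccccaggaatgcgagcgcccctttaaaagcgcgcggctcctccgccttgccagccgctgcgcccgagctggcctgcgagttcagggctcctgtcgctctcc
BHLHE40: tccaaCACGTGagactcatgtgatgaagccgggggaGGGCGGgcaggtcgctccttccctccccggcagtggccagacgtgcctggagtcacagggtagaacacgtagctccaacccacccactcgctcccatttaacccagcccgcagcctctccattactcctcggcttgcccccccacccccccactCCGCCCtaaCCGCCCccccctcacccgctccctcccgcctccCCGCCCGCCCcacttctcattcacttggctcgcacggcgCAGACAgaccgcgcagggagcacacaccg
TGFB1: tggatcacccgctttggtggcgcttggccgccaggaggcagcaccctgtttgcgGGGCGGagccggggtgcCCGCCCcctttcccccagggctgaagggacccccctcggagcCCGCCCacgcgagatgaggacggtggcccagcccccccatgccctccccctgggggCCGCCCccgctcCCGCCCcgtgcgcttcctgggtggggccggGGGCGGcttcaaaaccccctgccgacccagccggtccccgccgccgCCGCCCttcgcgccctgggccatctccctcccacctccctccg
The windows lie at chr1:218345086-218345385 (plus strand) for TGFB2, chr15:39580829-39581128 (plus strand) for THBS1, chr3:4979187-4979486 (plus strand) for BHLHE40 and chr19:41353873-41354172 (minus strand) for TGFB1. The TGFB2 window held a Smad box at -53 that shares 2 letters with an E-box at -49. The BHLHE40 window held an E-box at -245, a Smad box at +22 and 5 GC boxes, a pair of which overlap. THBS1 had 4 GC boxes and TGFB1 had 7, and neither held a Smad box, an AP-1 site or an E-box. Over all 27 windows that RefSeq lists for the 10 genes, 6 windows of 5 genes held a Smad box, 3 windows of 3 genes (TGFB2, SMAD3 and BHLHE40) an E-box, 2 windows of 2 genes (TGFBR2 and SMAD3) an AP-1 site, 12 windows of 8 genes a GC box and 0 the palindrome. Of all 35116 promoter windows of that length, 16.9% held the Smad box letters, 7.26% the E-box, 4.95% the AP-1 site, 45% the GC box and 0.202% the palindrome. A match is a description of the letters only.

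TGFB1 (chr19:41301587-41353911, minus strand; positions of genes here are those of GENCODE 29 on GRCh38) encodes the most widely expressed TGF-beta ligand. Its level was 136.7, 156.6 and 146.7 CPM with K149, against 114.2, 117.8 and 115.9 CPM in its DMSO libraries. Every K149 library lay above every DMSO library. The log2 fold, on the scale of log2(CPM + 1) as are all log2 folds here, was 0.33 ± 0.05 (SE), with a limma adjusted p of 7.95e-05. Of all genes tested, 26.7% had a larger fold with K149. Under AS1949490 its level was 151.9 and 152.3 CPM, against 171.8 and 164 CPM in its DMSO libraries. Both AS1949490 libraries lay below both DMSO libraries, but the log2 fold of -0.14 ± 0.06 did not pass the test (limma adjusted p = 0.0829). Under median-of-ratios scaling it did pass, at -0.23 (adjusted p = 0.015), and likewise with upper-quartile scaling and with edgeR, while without K149 replicate 2 in the shared fit its adjusted p was 0.0395.

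TGFB2 (chr1:218346235-218444619, plus strand), whose promoter window is the first shown above, encodes another ligand, which depends on the co-receptor TGFBR3 for binding to the type II receptor. The window lies upstream of the gene start that GENCODE 29 gives. TGFB2 was at 24.29, 25.44 and 22.98 CPM with K149, against 15.89, 16.54 and 14.49 CPM in its DMSO libraries. Here too the K149 libraries were all above the DMSO libraries, and the log2 fold was 0.60 ± 0.12 (limma adjusted p = 0.000655). Under AS1949490 it stood at 19.09 and 16.29 CPM, against 42.77 and 65.57 CPM in its DMSO libraries. The DMSO pair was high and far apart, and the AS1949490 pair was low. The log2 fold was -1.53 ± 0.15 (limma adjusted p = 4.26e-06), and only 18 of the 17837 genes tested had a lower fold in that comparison. It was -1.84 without DMSO replicate 1 and -1.23 without DMSO replicate 2 of that arm. TGFB2 shares 26.6% of its exon bases with TGFB2-OT1 on the same strand, and how the counting treated such reads is not given in the sources used here, so its level is uncertain. TGFB2-OT1 itself had log2 folds of 0.33 ± 0.14 with K149 (limma adjusted p = 0.0527) and -1.43 ± 0.17 with AS1949490 (limma adjusted p = 2.07e-05).

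TGFBR1 (chr9:99104038-99154192, plus strand) encodes the type I receptor kinase that phosphorylates SMAD2 and SMAD3. It was at 75.45, 68.56 and 71.87 CPM with K149, against 31.48, 33.88 and 32.98 CPM in its DMSO libraries. The lowest K149 library was above 2 times the highest DMSO library. The log2 fold of 1.11 ± 0.09 (limma adjusted p = 8.54e-08) was the largest rise of the set with K149, exceeded by 429 of all genes tested. The AS1949490 libraries held 50.71 and 49.47 CPM, against 27.88 and 37.68 CPM in its DMSO libraries. Both treated libraries were above both DMSO libraries, and the log2 fold was 0.61 ± 0.11 (limma adjusted p = 0.00039). This value rested in part on which DMSO library was kept, being 0.40 without DMSO replicate 1 and 0.82 without DMSO replicate 2. Each of these fits left 1 DMSO library in that arm, so only the size of the fold is given.

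TGFBR2 (chr3:30606502-30694142, plus strand) encodes the type II receptor, the subunit that first binds the ligand. It was at 311.6, 280.5 and 326.7 CPM with K149, against 178.8, 184 and 187.1 CPM in its DMSO libraries. The groups did not overlap, and the log2 fold was 0.73 ± 0.08 (limma adjusted p = 1.82e-06). Treatment with AS1949490 gave 181.9 and 172.1 CPM, against 129.3 and 164.6 CPM in its DMSO libraries. The treated libraries were higher, but DMSO replicate 2 lay close to them. The log2 fold was 0.28 ± 0.10 (limma adjusted p = 0.0269). This call was lost under median-of-ratios (0.19) and upper-quartile (0.14) scaling and with edgeR (0.18). It was also lost with no filter on low values (limma adjusted p = 0.094) and in a fit of that arm alone (limma adjusted p = 0.0932). The log2 fold was 0.10 without DMSO replicate 1 of that arm, 0.24 without AS1949490 replicate 1 and 0.32 without AS1949490 replicate 2.

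**Figure D1:**
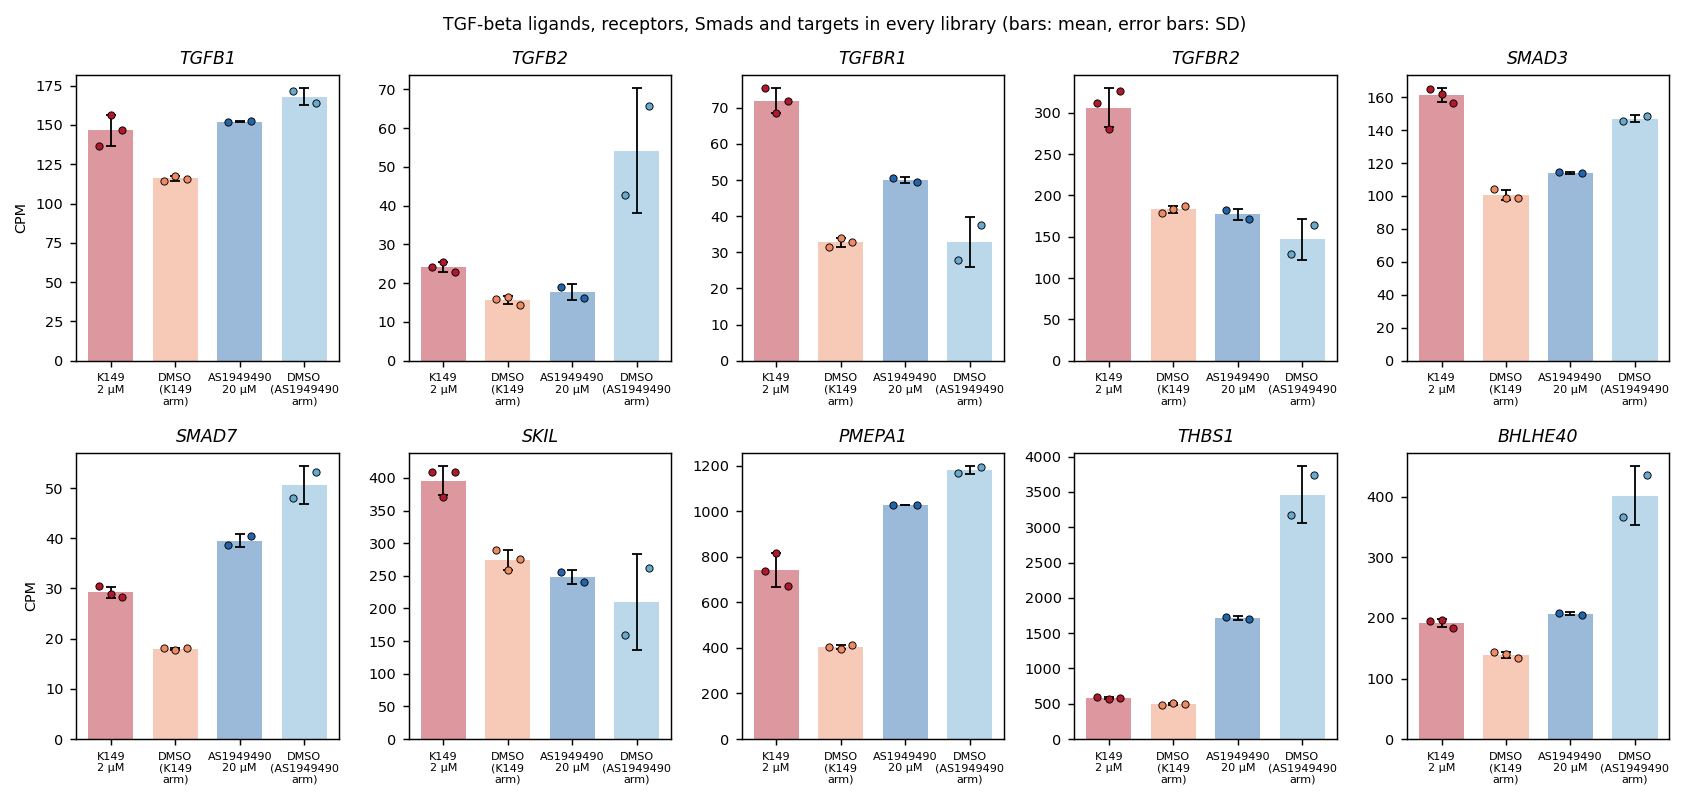
CPM of each gene in every library, with 1 panel per gene on a linear axis from 0, points for libraries, bars for group means and error bars for the SD (n = 3 for K149 and its DMSO, n = 2 for AS1949490 and its DMSO). In all 10 panels the K149 points lie above those of their DMSO. For TGFB1, TGFB2, SMAD7, PMEPA1, THBS1 and BHLHE40 the DMSO libraries of the AS1949490 arm stand above every other library.

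SMAD3 (chr15:67063763-67195195, plus strand) encodes the receptor-regulated Smad that binds DNA directly. It was at 164.9, 162.2 and 156.6 CPM with K149, against 104, 98.59 and 98.65 CPM in its DMSO libraries. Replicates lay close together and the groups far apart, and the log2 fold was 0.68 ± 0.05 (limma adjusted p = 1.67e-08). The AS1949490 libraries had 114.5 and 113.7 CPM, against 145.5 and 148.5 CPM in its DMSO libraries. The groups again did not overlap, in the other direction, and the log2 fold was -0.36 ± 0.06 (limma adjusted p = 0.000152).

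SMAD7 (chr18:48919853-48952052, minus strand) encodes the inhibitory Smad that TGF-beta itself induces and that brings ubiquitin ligases to the receptor. It was at 30.43, 28.98 and 28.22 CPM with K149, against 18.19, 17.69 and 18.04 CPM in its DMSO libraries. All K149 libraries were higher, with a log2 fold of 0.67 ± 0.06 (limma adjusted p = 4.89e-07). In the AS1949490 libraries it was at 38.57 and 40.42 CPM, against 47.96 and 53.22 CPM in its DMSO libraries. Both treated libraries were lower, with a log2 fold of -0.35 ± 0.08 (limma adjusted p = 0.00199).

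SKIL (chr3:170357678-170396835, plus strand) encodes SnoN, a corepressor that binds SMAD2, SMAD3 and SMAD4 on target genes and is degraded when the pathway is active. It was at 408.5, 371.1 and 408.3 CPM with K149, against 289.7, 258.3 and 275.6 CPM in its DMSO libraries. The K149 libraries were all higher, and the log2 fold was 0.53 ± 0.13 (limma adjusted p = 0.0023). AS1949490 libraries gave 255.2 and 240.7 CPM, against 158.6 and 262.6 CPM in its DMSO libraries. The 2 DMSO libraries enclosed the treated ones, and the log2 fold of 0.28 ± 0.16, with a 95% interval of -0.06 to 0.61, did not pass the test (limma adjusted p = 0.149). It was -0.08 without DMSO replicate 1 and 0.64 without DMSO replicate 2, so that 1 library decided its value.

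PMEPA1 (chr20:57648392-57711536, minus strand) encodes a membrane protein that TGF-beta induces and that holds receptor-regulated Smads away from the receptor. It was at 736, 818.5 and 671.1 CPM with K149, against 404.3, 394 and 413.4 CPM in its DMSO libraries. The K149 libraries were all far above the DMSO libraries, and the log2 fold was 0.87 ± 0.06 (limma adjusted p = 2.34e-08). With AS1949490 it was 1027 and 1029 CPM, against 1170 and 1192 CPM in its DMSO libraries. The treated pair was lower, by a log2 fold of -0.20 ± 0.07 (limma adjusted p = 0.0372). This small difference lost its call without K149 replicate 1 or without any DMSO library of the K149 arm (limma adjusted p 0.051 to 0.0553). It was also lost with no filter on low values (limma adjusted p = 0.118) and with the replicate number as a block (limma adjusted p = 0.0678). Leaving out a library of the AS1949490 arm gave log2 folds of -0.21 to -0.19. NKILA, a noncoding RNA that overlaps 6.1% of the exon bases of PMEPA1, had log2 folds of 0.60 ± 0.08 with K149 (limma adjusted p = 1.05e-05) and -1.39 ± 0.09 with AS1949490 (limma adjusted p = 2.3e-07).

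THBS1 (chr15:39581079-39599466, plus strand) encodes thrombospondin-1 and has the GC-box window shown above. The product is a matrix protein that can release active TGF-beta from its latent complex and that is itself a target gene. It was at 598.1, 569.7 and 586.1 CPM with K149, against 478.5, 511.6 and 498.2 CPM in its DMSO libraries. The K149 libraries were all higher by a small margin, the smallest rise of the set, with a log2 fold of 0.24 ± 0.06 (limma adjusted p = 0.00243). A larger fold with K149 was found for 33.9% of all genes tested. With AS1949490 it was 1734 and 1695 CPM, against 3175 and 3743 CPM in its DMSO libraries. The AS1949490 libraries were far below their DMSO and still far above every library of the K149 arm. The log2 fold was -1.01 ± 0.07 (limma adjusted p = 3.06e-07), and 147 of all genes tested had a lower one. It was -1.13 without DMSO replicate 1 and -0.89 without DMSO replicate 2.

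BHLHE40 (chr3:4979116-4985323, plus strand) encodes a basic helix-loop-helix repressor of E-box genes that answers to TGF-beta, hypoxia and the circadian clock. Its own window, shown above, holds an E-box. It was at 195.3, 196.6 and 183.5 CPM with K149, against 143.9, 139.7 and 133.5 CPM in its DMSO libraries. All K149 libraries were higher, with a log2 fold of 0.46 ± 0.06 (limma adjusted p = 1.52e-05). With AS1949490 it was 208.6 and 205.5 CPM, against 367.2 and 436.1 CPM in its DMSO libraries. The treated pair was near the level of the K149 libraries and well below its own DMSO, with a log2 fold of -0.95 ± 0.07 (limma adjusted p = 8.16e-07). Leaving out either DMSO library moved it to -1.07 or -0.82.

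Counted together, all 10 genes rose with K149, where 30.6% of all genes tested fell. Since the genes were chosen with earlier results of these data known, the counts and medians here describe them and do not test the pathway. All 10 also had every K149 library above every DMSO library, as 37.7% of all genes did, while 32.6% had every one below. The median log2 fold of the 10 was 0.64, beside 0.04 over all genes. With AS1949490, 2 rose (TGFBR1 and TGFBR2), 6 fell (TGFB2, SMAD3, SMAD7, PMEPA1, THBS1 and BHLHE40), and TGFB1 and SKIL were not called. The calls of TGFBR2 and PMEPA1 with AS1949490 were each lost in several of the alternatives run. The median log2 fold of the 10 with AS1949490 was -0.27, beside 0.08 over all genes. Of all calls with AS1949490, 62.2% were higher, a share that was 43.7% under upper-quartile scaling, 50.7% under median-of-ratios scaling and 50.2% with edgeR. Counts of libraries that do not overlap were 7 genes below and 2 above with AS1949490, where 30.5% and 44.5% of all genes did so.

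The doses of the inhibitors differed, 2 µM for K149 and 20 µM for AS1949490, as did their vehicle libraries, so the comparison of their effects is at unmatched doses. Each effect was taken within its arm and the difference between them, K149 minus AS1949490, was tested in limma. The difference was called for 9 of the 10 genes, all 9 positive, where 40.4% of all genes were called and 15.1% were called positive. Of all genes called for the difference 37.4% were positive, a share that was 64.5% under upper-quartile scaling. The difference was largest for TGFB2, at 2.14 ± 0.19 (limma adjusted p = 1.43e-06), with 19 of all genes tested above it. It was 1.41 for BHLHE40 (adjusted p = 7.83e-08), 1.24 for THBS1 (adjusted p = 1.55e-07), 1.07 for PMEPA1 (adjusted p = 1.27e-06), 1.04 for SMAD3 (adjusted p = 8.98e-08) and 1.02 for SMAD7 (adjusted p = 2.78e-06). It was less than 1 for TGFB1, at 0.48 (limma adjusted p = 0.000529), and for the receptors. For these it was 0.50 for TGFBR1 (limma adjusted p = 0.0112) and 0.46 for TGFBR2 (limma adjusted p = 0.00956). Both receptors were called higher with both inhibitors, though the call of TGFBR2 with AS1949490 was lost in several alternatives. Without DMSO replicate 2 of the AS1949490 arm, the difference was 0.29 for TGFBR1 and 0.29 for TGFBR2. For SKIL it was 0.25, with a 95% interval of -0.18 to 0.68 (limma adjusted p = 0.35). That of SKIL was 0.61 without DMSO replicate 1 and -0.11 without DMSO replicate 2 of the AS1949490 arm.

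**Figure D2:**
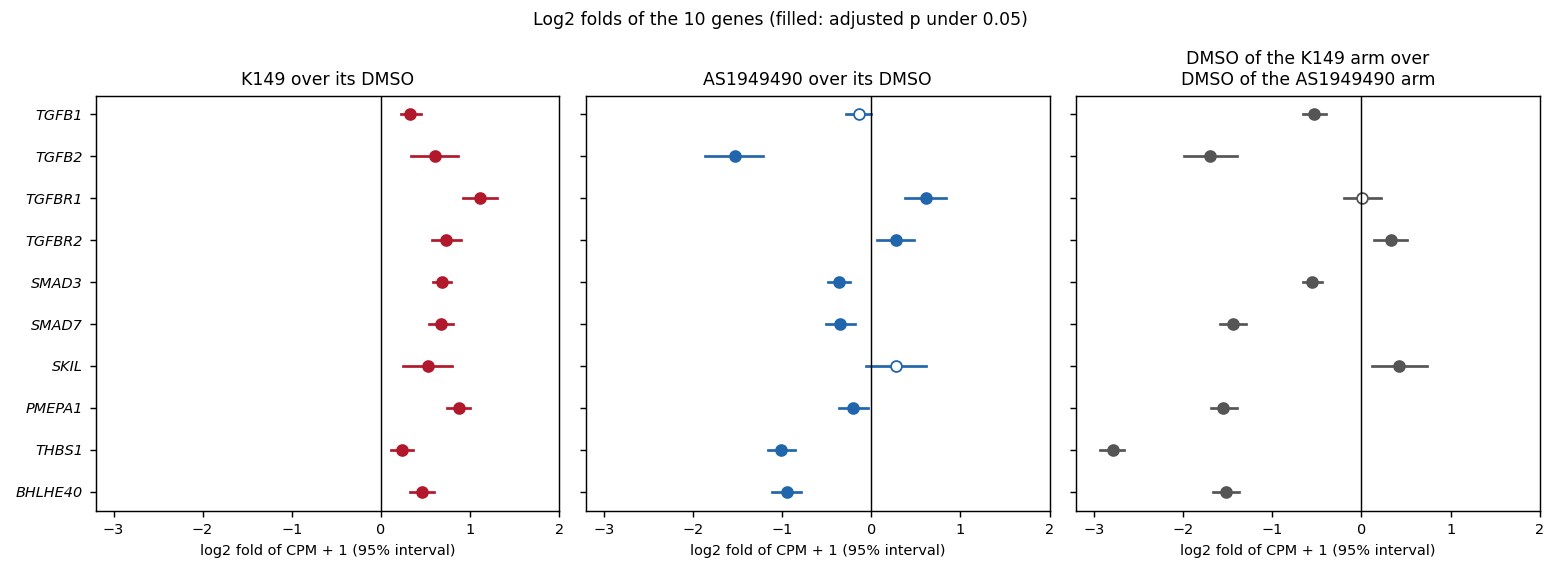
Log2 folds of CPM + 1 with 95% intervals for the 10 genes, with K149 over its DMSO on the left, AS1949490 over its DMSO in the middle and the DMSO of the K149 arm over that of the AS1949490 arm on the right. Filled points are called at an adjusted p under 0.05: all 10 points lie right of 0 with K149, 6 filled points lie left of 0 with AS1949490, and THBS1 is at -2.79 between the vehicles.

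For 6 of the 10 genes (TGFB1, TGFB2, SMAD7, PMEPA1, THBS1 and BHLHE40) the log2 fold between the vehicles was larger in size than the fold with either inhibitor. The vehicle libraries are the same ones that each inhibitor was set against, so the values below are not independent of those above. In the DMSO of the K149 arm 7 genes were lower than in the DMSO of the AS1949490 arm, where 29.1% of all genes were lower, and 2 were higher, where 37.1% were higher. Of all calls between the vehicles 56% were higher, a share that was 42.3% under upper-quartile scaling. THBS1 averaged 496.1 ± 16.7 CPM in the DMSO of the K149 arm and 3459 ± 402 CPM in that of the AS1949490 arm (SD, n = 3 and n = 2), a log2 fold of -2.79 ± 0.06 (limma adjusted p = 1.04e-12). Only 52 of all genes tested had a lower one. TGFB2 averaged 15.64 ± 1.05 CPM in the DMSO of the K149 arm and 54.17 ± 16.1 CPM in that of the AS1949490 arm, the K149 arm thus holding 0.289 times the level of the other (limma adjusted p = 1.29e-07). PMEPA1 (-1.55), BHLHE40 (-1.52) and SMAD7 (-1.44) were lower in the K149 arm's DMSO by similar log2 folds, and SMAD3 (-0.55) and TGFB1 (-0.53) by smaller ones. For 7 of the 10 genes every library of the K149 arm's DMSO was below every one of the other DMSO, as for 33.9% of all genes, and for 1 (TGFBR2) above, as for 42.5%.

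TGFBR2 was 0.33 higher on the log2 scale in the DMSO of the K149 arm than in that of the AS1949490 arm (limma adjusted p = 0.00463), and SKIL was 0.42 higher (limma adjusted p = 0.0172) with overlapping libraries. Without DMSO replicate 1 of the AS1949490 arm TGFBR2 stood at 0.15 and SKIL at 0.06. Neither call held under upper-quartile scaling, where they stood at 0.17 and 0.26. That of SKIL was also lost with no filter on low values (adjusted p = 0.0753), with edgeR (0.31) and without DMSO replicate 1 of the K149 arm (0.38). TGFBR1 averaged 32.78 ± 1.21 CPM in the DMSO of the K149 arm and 32.78 ± 6.93 CPM in that of the AS1949490 arm, and its log2 fold of 0.01, with a 95% interval of -0.20 to 0.22, was not called (limma adjusted p = 0.902). It was -0.20 without DMSO replicate 1 and 0.23 without DMSO replicate 2 of the AS1949490 arm.

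Across the 4 groups, SMAD7, PMEPA1, THBS1 and BHLHE40 shared 1 order of levels, with no overlap between neighbours: highest in the DMSO of the AS1949490 arm, then AS1949490, then K149, and lowest in the DMSO of the K149 arm. For these 4 genes the levels with both inhibitors lay between those of the vehicles. TGFB1 had the same order of means, but its AS1949490 and K149 libraries overlapped. TGFB2 was highest in the DMSO of the AS1949490 arm and then with K149, and its AS1949490 libraries overlapped those of the DMSO of the K149 arm. SMAD3 was highest with K149, followed by the DMSO of the AS1949490 arm, AS1949490 and the DMSO of the K149 arm, with all neighbours apart. The receptors and SKIL were highest with K149, where TGFBR1 was followed by AS1949490 and both vehicles overlapped, and TGFBR2 and SKIL were followed by the DMSO of the K149 arm.

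Per kilobase of exon, the target genes PMEPA1 and THBS1 were at or near the top of the set. PMEPA1 led with K149 at 132 CPM per kb, followed by TGFBR2 at 65.1 and THBS1 at 63.8, and in its DMSO at 71.9 CPM per kb, while THBS1 led with AS1949490 at 187 CPM per kb and in its DMSO at 378 CPM per kb. The type II receptor was the more abundant receptor throughout, with TGFBR2 at 65.1 CPM per kb with K149, 39 in its DMSO, 37.6 with AS1949490 and 31.2 in its DMSO. TGFBR1 was at 10.5 CPM per kb with K149, 4.79 in its DMSO, 7.32 with AS1949490 and 4.79 in its DMSO. Of the ligands, TGFB1 was well above TGFB2, at 45.3 against 4.7 CPM per kb with K149, 35.8 against 3.04 in its DMSO, 47 against 3.43 with AS1949490 and 51.9 against 10.5 in its DMSO. SMAD7, with TGFB2 and TGFBR1, was among the 3 lowest genes in every group, at 5.8 CPM per kb with K149, 3.57 in its DMSO, 7.85 with AS1949490 and 10.1 in its DMSO.

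**Figure D3:**
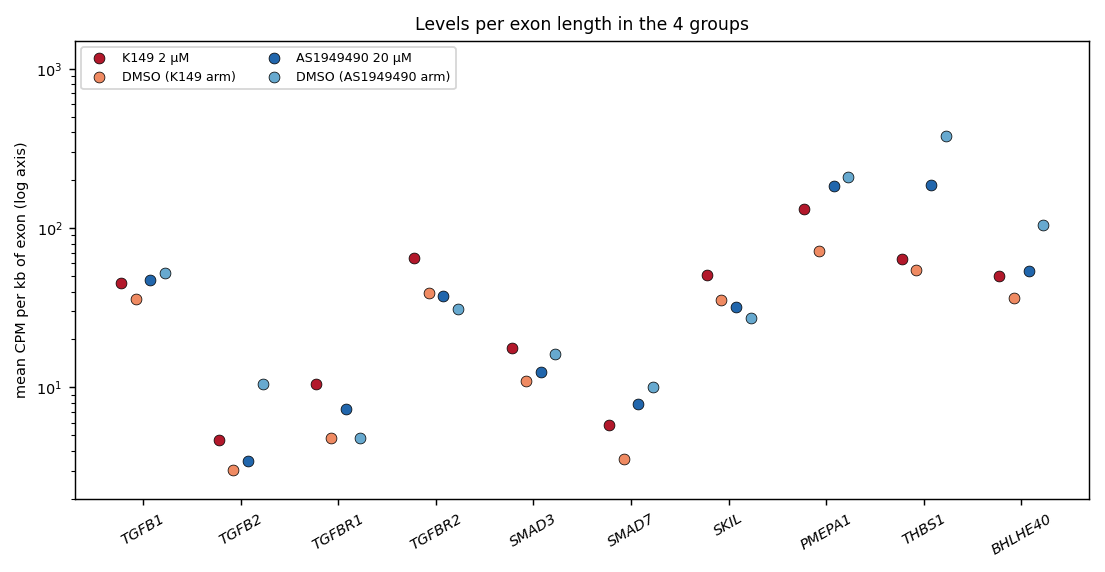
Mean CPM per kilobase of exon on a log axis for the 10 genes, with points for K149, its DMSO, AS1949490 and its DMSO from left to right within each gene. PMEPA1 is the top point with K149 (132 CPM per kb) and in its DMSO (71.9), THBS1 the top point with AS1949490 (187) and in its DMSO (378), and TGFB2, TGFBR1 and SMAD7 lie lowest, from 3.04 to 10.5 CPM per kb.

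Other genes of the pathway were described from lists of ligands and their activators, receptors and adaptors, Smads and partners, negative and other regulators, and targets. The lists too were chosen with earlier results of these data known, so their counts are a description only. The shares of all genes to set beside the list counts are 35.8% higher and 30.6% lower with K149, and 32.1% higher and 19.5% lower with AS1949490. Of 31 target genes tested, 20 rose and 1 (HMGA2) fell with K149, with a median log2 fold of 0.49 beside 0.04 over all genes. The largest rises were those of PTHLH, which encodes parathyroid hormone-related protein, at 33.19 ± 5.2 CPM with K149 and 6.063 ± 0.862 CPM in its DMSO (log2 fold 2.27 ± 0.11, limma adjusted p = 3.14e-10), and of the cell-cycle inhibitors CDKN1A (1.60 ± 0.06, limma adjusted p = 3.31e-11) and CDKN2B (1.52 ± 0.08, limma adjusted p = 1.09e-09). HMGA2, a chromatin protein, fell by 0.26 on the log2 scale. With AS1949490, 17 target genes fell and 7 rose, with a median of -0.42 beside 0.08 over all genes. CTGF, a matricellular protein, was at 26.86 ± 1.52 CPM with AS1949490 and 175.8 ± 55.6 CPM in its DMSO, a log2 fold of -2.63 ± 0.19 (limma adjusted p = 4.05e-07). CYR61, of the same family, had -1.81 ± 0.10 (limma adjusted p = 6.04e-08), and JUNB, an AP-1 subunit, had -1.21 ± 0.13 (limma adjusted p = 9.02e-06). VEGFA (0.87 ± 0.09), ITGA5 (0.81 ± 0.08) and HMGA2 (0.73 ± 0.06) rose most of the targets with AS1949490. CDKN1A (0.58 ± 0.07) and CDKN2B (0.37 ± 0.10) were also called higher with AS1949490, while PTHLH was called lower (-0.53 ± 0.13).

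Between the vehicles the targets were also lower in the K149 arm. In the DMSO of the K149 arm 30 of the 31 targets were lower than in the DMSO of the AS1949490 arm, where 29.1% of all genes were lower, with a median log2 fold of -1.55 beside 0.06 over all genes, and CDKN2B alone was higher, by 1.35 ± 0.09 (limma adjusted p = 1.58e-08). CDKN2B was at 195.8 ± 4.29 CPM with K149 and 67.86 ± 1.39 CPM in its DMSO, and at 34.03 ± 0.0714 CPM with AS1949490 and 26.28 ± 5.3 CPM in its DMSO. The difference between the inhibitor effects was called for 26 targets, 24 positive and 2 (HMGA2 and VEGFA) negative, where 15.1% of all genes were called positive and 25.3% negative.

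The lists of genes that make, release or sense the ligand had medians nearer to those of all genes. Of 9 tested genes of ligand latency and activation, 5 rose and 1 fell with K149 (median log2 fold 0.27), and 4 rose and 2 fell with AS1949490 (median 0.24), shares of 44.4% and 22.2% beside 32.1% and 19.5% of all genes. ITGAV, the integrin subunit that activates latent TGF-beta, rose with both inhibitors, by log2 folds of 1.02 ± 0.17 with K149 and 1.07 ± 0.21 with AS1949490, as did its partner ITGB6 (0.80 ± 0.11 with K149 and 0.78 ± 0.14 with AS1949490), which shares 20.6% of its exon bases with another gene. The DMSO libraries of the AS1949490 arm lay far apart for both, at 111.4 and 205.5 CPM for ITGAV and at 62.7 and 94.15 CPM for ITGB6. FURIN, which cleaves the ligand precursor, rose by 1.07 with K149 on the same scale (limma adjusted p = 7.98e-10) and fell by 0.17 with AS1949490 (limma adjusted p = 0.0461). That small fall lost its call in 11 of the alternatives run, and was -0.08 without DMSO replicate 2 of that arm. The third ligand, TGFB3, fell by 0.47 with K149 on the log2 scale, and the latency protein LTBP2 fell by 1.05 with AS1949490. Of 10 receptor and adaptor genes tested, 5 rose and 1 fell with K149 (median 0.08), and 6 rose and 0 fell with AS1949490 (median 0.31). Among those that rose with both were TRAF6 (0.52 ± 0.08 with K149 and 0.40 ± 0.09 with AS1949490), ZFYVE9 (0.38 ± 0.07 and 0.63 ± 0.09) and SHC1 (0.23 ± 0.04 and 0.27 ± 0.05). The co-receptor TGFBR3 was the one that fell with K149, at 18.85 ± 2.44 CPM against 25.3 ± 1.51 CPM in its DMSO (log2 fold -0.41 ± 0.11), and it rose with AS1949490, at 11.44 ± 0.354 CPM against 6.896 ± 1.7 CPM in its DMSO (log2 fold 0.67 ± 0.14).

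Of 9 Smad signal and partner genes tested, 5 rose and 2 fell with K149 (median 0.26), and 3 rose and 0 fell with AS1949490 (median 0.20), the rises at 33.3% being close to the 32.1% of all genes. EP300, a histone acetyltransferase that works with Smads, rose with both (0.58 ± 0.12 with K149 and 0.59 ± 0.14 with AS1949490), and the transcription factors RUNX2 (-0.48 ± 0.09) and SP1 (-0.36 ± 0.09) fell with K149. For EP300 the DMSO libraries of the AS1949490 arm lay apart, at 97.12 and 128.2 CPM. SMAD2 rose with AS1949490 (0.24 ± 0.07, limma adjusted p = 0.00973). It was not called under median-of-ratios scaling (0.15), upper-quartile scaling (0.10) or edgeR (0.15), or in a fit of that arm alone (limma adjusted p = 0.0509). Its log2 fold was 0.21 without AS1949490 replicate 2 and 0.18 without DMSO replicate 1 of that arm. FOXH1, a forkhead partner of SMAD2, rose with both (0.42 ± 0.09 with K149 and 0.90 ± 0.11 with AS1949490), but it shares 31.6% of its exon bases with KIFC2 and is uncertain. The list of regulators held the inhibitors and also RNF111, USP15 and USP11, which are known to promote the signal. Of its 12 genes tested, 9 rose and 1 fell with K149 (median 0.30), and 4 rose and 2 fell with AS1949490 (median 0.02). Those that rose included RNF111 and USP11 with K149 and RNF111 and USP15 with AS1949490. The ubiquitin ligase WWP1 rose with both (0.48 ± 0.10 with K149 and 0.82 ± 0.13 with AS1949490), and RNF111, which marks SKIL and SMAD7 for degradation, rose with AS1949490 (0.87 ± 0.08). For WWP1 too the DMSO libraries of the AS1949490 arm lay apart, at 30.77 and 45.08 CPM. The corepressor TGIF2 fell by 0.71 with K149, and the ligase NEDD4L fell by 0.59 with AS1949490. Of the listed genes LRRC32, NRROS, ACVRL1, ZEB2, LDLRAD4 and MMP9 did not pass the filter on low values, ZEB2 being the highest of them at no more than 1.149 CPM in any library.

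**Figure D4:**
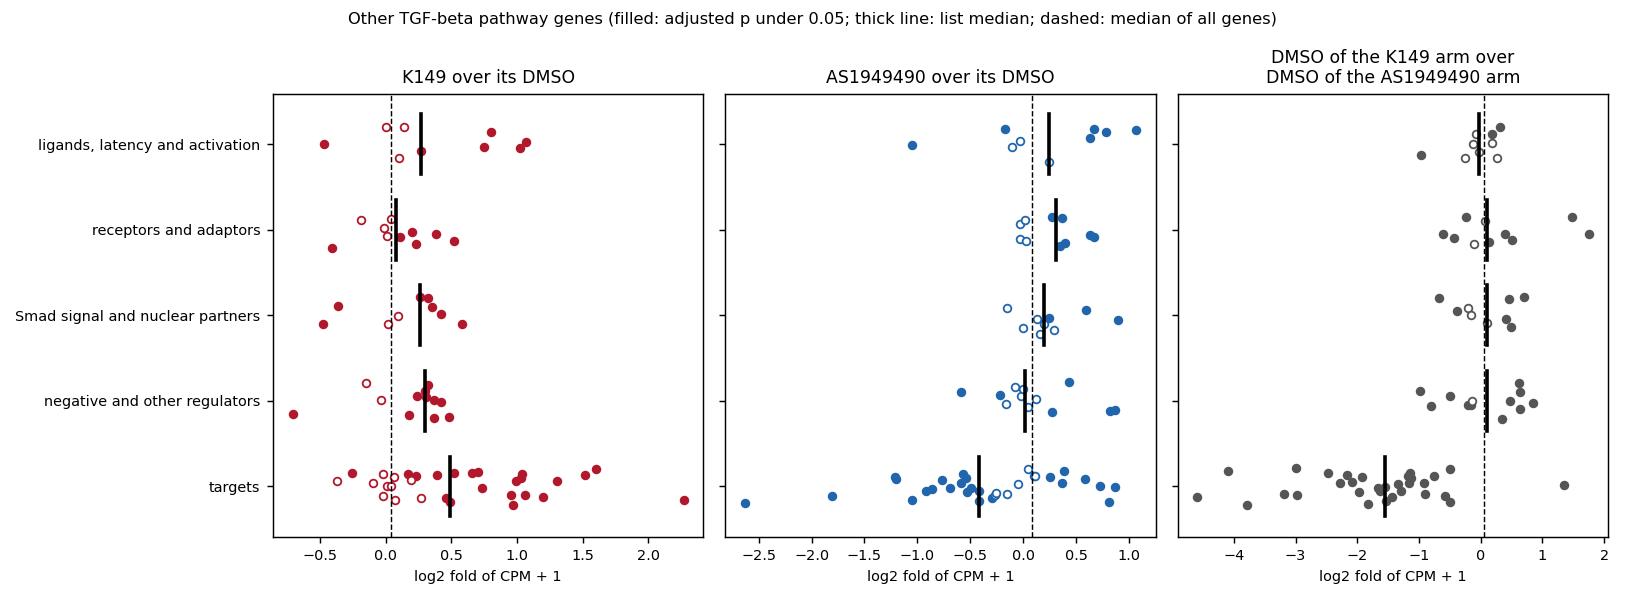
Log2 folds of CPM + 1 of the other pathway genes by list, with K149 over its DMSO on the left, AS1949490 over its DMSO in the middle and the DMSO of the K149 arm over that of the AS1949490 arm on the right. Points are genes, filled where called, thick lines are list medians and the dashed line is the median of all genes; the target medians are 0.49, -0.42 and -1.55 from left to right.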

How the data were processed

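Transcript levels were measured by RNA sequencing of total RNA from KYSE-410 cells in 10 libraries; per the labels' protocols the library kit was Ovation Solo. The submitters' processing notes name STAR 2.5.3a, HTSeq and the hg38 build, without the annotation, the counting rules or the use of strand. The authors deposited 1 table of CPM values for 58302 gene IDs, of which 58039 matched GENCODE 29 and 263 did not. No value column lacked a sample (0). All values were whole multiples of about 0.05 CPM, from which reads per library were inferred, as if scaled to a common total and rounded up, a step that no source used here records. Groups came from sample titles, except for DMSO replicate 3 of the K149 arm, whose arm came from its library name. Separate cultures for the libraries of a group are not stated in the labels, so that each p-value reflects the variation among these libraries alone, perhaps only technical variation.

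The values log2(CPM + 1) of all 10 libraries were fitted with limma 3.58.1 (R 4.3.3), with 4 group means and a mean-variance trend. A gene was tested if any group mean reached 1 CPM, and p-values were adjusted by Benjamini-Hochberg over these 17837 genes, with a call at an adjusted p under 0.05. Fold changes on this scale understate those of low genes. Alternatives were pseudocounts of 0.5 and 5, no filter, other scalings, edgeR 4.0.16 on the inferred reads, a replicate block, each arm alone, and each library left out. The members, pathway lists and marker lists were chosen with earlier results of these data known. Genes outside the set were drawn by a rule from each list and inhibitor. It took up to 3 called genes with the largest log2 fold in each direction and an arm mean of at least 5 CPM. Of the genes so drawn, LTBP1, RUNX1, TGIF1, PPM1A and SMURF1 are not described. Promoter windows and their sequence came from RefSeq (GRCh38.p14), matched by symbol for all 10 genes. Levels per kb used the union of exons in GENCODE 29.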

Additional observations from a re-analysis of the deposited data

Results flagged for a closer look

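For 9 of the 10 genes the effect of K149 at 2 µM and that of AS1949490 at 20 µM, each against its own DMSO, differed by a test of the difference itself in limma (adjusted p under 0.05). The difference of log2 folds, K149 minus AS1949490, was 0.48 for TGFB1, 2.14 for TGFB2, 0.50 for TGFBR1, 0.46 for TGFBR2, 1.04 for SMAD3, 1.02 for SMAD7, 1.07 for PMEPA1, 1.24 for THBS1 and 1.41 for BHLHE40. Doses, vehicle libraries and library sets all differ between the arms, and their parts in these differences cannot be told apart. The vehicle levels of TGFB2, SMAD7, PMEPA1, THBS1 and BHLHE40 in the K149 arm were 0.289, 0.355, 0.342, 0.143 and 0.346 times those in the AS1949490 arm, and those of TGFB1, TGFBR1 and SMAD3 were 0.691, 1 and 0.683 times. TGFBR2 was higher in the vehicle of the K149 arm, by 0.33 on the log2 scale.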

How the results depend on the processing

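The counts of genes and of members called stayed within 1.5 times their values under every alternative run. Leaving out each library in turn gave 10851 to 12290 genes with K149 (10 to 10 members), 6884 to 9737 with AS1949490 (6 to 9 members), 5491 to 7439 for the difference between the effects (9 to 10 members) and 10480 to 12221 between the vehicles (8 to 10 members). Of 690 member values under alternatives, 651 kept direction and side of the threshold, 25 lost the call, 7 gained it and 7 changed sign. Of 810 values of other named genes, 17 lost the call and 0 changed sign. TGFBR1 between the vehicles, 0.01 as reported, was -0.03 under median-of-ratios scaling, -0.14 under upper-quartile scaling, -0.07 with edgeR, -0.01 without DMSO replicate 2 of the K149 arm and -0.20 and 0.23 without DMSO replicate 1 or 2 of the AS1949490 arm. SKIL with AS1949490 was -0.08 and 0.64, and its difference between the effects 0.61 and -0.11, without DMSO replicate 1 or 2 of that arm. Upper-quartile scaling moved the median log2 fold of all genes by -0.116 with AS1949490, 0.180 for the difference and -0.138 between the vehicles, and member values under it move with that shift. For these sign changes the cause was not tested beyond the libraries left out. Same-numbered libraries deviated together weakly or not at all (correlations 0.10, 0.05 and -0.01 in the K149 arm and -0.24 in the AS1949490 arm), so the numbers were not taken as pairs. The block took its numbers from the sample titles, which in the AS1949490 arm differ from those in the names of the libraries. With the replicate number as a block, 11479, 8579 and 6408 genes were called with K149, with AS1949490 and for the difference, and 10, 7 and 9 members, PMEPA1 being the member lost with AS1949490. With crossed numbers in the AS1949490 arm as the block, chosen after seeing the data, 9534 genes and 9 members were called with AS1949490 and 7548 genes and 9 members for the difference. With 2 libraries a group, the AS1949490 comparisons rest on a spread shared with the other groups, and when 1 of them is left out the lone library is assumed to vary like the rest.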

Other observations

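Noncoding transcripts beside 3 of the genes were also measured, and were chosen after their values were seen. BHLHE40-AS1, which lies antisense to BHLHE40, was at 6.795 ± 0.448 CPM with K149 and 4.514 ± 0.0286 CPM in its DMSO (log2 fold 0.50, limma adjusted p = 0.00348), and at 6.846 ± 1.2 CPM with AS1949490 and 12.94 ± 3.61 CPM in its DMSO (log2 fold -0.81, limma adjusted p = 0.000763). TGFB2-AS1, antisense to TGFB2, had log2 folds of 0.35 with K149 (limma adjusted p = 0.0331) and -0.68 with AS1949490 (limma adjusted p = 0.00379), at no more than 2.948 CPM in any library. NKILA, beside PMEPA1, averaged 16.69 CPM with K149 and 10.61 CPM in its DMSO, and 32.03 CPM with AS1949490 and 85.94 CPM in its DMSO. The use of strand in counting is not given in the sources used here. Reads of a gene and of its antisense partner therefore cannot be told apart where they overlap. The exon bases shared with other genes were 0.104% for BHLHE40, 6.64% for TGFB1 and 7.58% for THBS1. Among the named targets they were 14.2% for JUNB, 10.5% for PTHLH and 8.34% for CTGF. In each case the largest overlap was with a gene on the opposite strand.

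IL11, a cytokine gene and listed target singled out after its values were seen, had a log2 fold of -4.59 in the DMSO of the K149 arm against that of the AS1949490 arm (limma adjusted p = 9.7e-13). PTHLH had -4.10 in the same comparison (limma adjusted p = 5.35e-12). IL11 itself had 0.04 ± 0.09 with K149 (limma adjusted p = 0.696) and -0.15 ± 0.11 with AS1949490 (limma adjusted p = 0.278).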
